A study of Homo sapiens with 6 samples.

Results

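Long intergenic noncoding RNAs that carry a numbered LINC symbol and were expressed in 786-O cells are described here. Of the 61860 gene rows of the deposited count table, 2244 had a symbol made of LINC and digits. Of those, 198 reached a mean of 0.5 counts in 1000000 (CPM, the count as a share of the column total) over the 6 libraries and are the members. They were chosen by that mean level over all libraries, which does not use the difference between groups. For 20 of them only 1 group averaged 0.5 CPM or more, LINC01512, LINC02154 and LINC02554 among them. The cells are a long-established renal carcinoma line of the clear cell type that has lost VHL, which normally directs hypoxia-inducible factors to degradation. One group of 3 libraries stably expressed a short hairpin RNA (shRNA) against METTL3, and the other group of 3 libraries stably expressed a control shRNA. METTL3 is the enzyme that adds most N6-methyladenosine (m6A) to RNA. Total RNA had been depleted of ribosomal RNA before sequencing, so transcripts with and without a poly(A) tail could be counted.

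LINC symbols are numbers given to long noncoding RNA genes that lie between protein-coding genes and have no agreed functional name. Such RNAs are transcribed by RNA polymerase II, are mostly spliced, and tend to be weakly expressed and restricted to few cell types. Some act on chromatin or bind proteins in the nucleus, some pair with microRNAs in the cytoplasm, some host a microRNA, and a few encode a small protein. GGACT is the commonest form of the sequence context in which m6A sits in mRNAs and long noncoding RNAs. Bound reader proteins change the stability, splicing or chromatin contact of the marked RNA.

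The sequences below are a selection of the GGACT sites in members with large changes in either direction. Each is the annotated reference transcript around GGACT (in capitals) with 15 bases on either side, 5′ to 3′, from GENCODE 29 transcripts on GRCh38. LINC02154 holds a pair of sites 7 bases apart, and LINC02554, the member with the largest fall, holds 3. LINC02376 holds 2 and LINC01963 holds 6, not all shown, and LINC01226, not shown, holds 13. LINC01572 and LINC00115, among the 10 largest rises, and LINC01629, among the 10 largest falls, hold 0.
LINC02970, position 189 of 625: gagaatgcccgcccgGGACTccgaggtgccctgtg
LINC02154, position 164 of 1497: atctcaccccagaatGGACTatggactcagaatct
LINC02154, position 171 of 1497: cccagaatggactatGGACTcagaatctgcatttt
LINC02376, position 28 of 724: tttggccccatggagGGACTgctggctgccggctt
LINC02554, position 1293 of 5052: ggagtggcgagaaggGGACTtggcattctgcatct
LINC02554, position 3362 of 5052: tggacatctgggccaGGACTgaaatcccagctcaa
LINC01963, position 512 of 3148: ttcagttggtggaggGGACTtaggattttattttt
Positions are those of the A within GGACT, counted from 1 at the 5′ end of the transcript. A match is a description of the letters. Methylation was not measured in these libraries.

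Promoters are shown for 3 members, as 300 bases from 250 before to 50 after the RefSeq start (GRCh38.p14). A promoter entry was matched by symbol for 129 of the 198 members. The letters searched on both strands were ACGTG, the core bound by hypoxia-inducible factors, and TGANTCA, bound by AP-1 factors. Matches are in capitals. LINC01512 had the largest rise, LINC00887 is one of the members studied in renal carcinoma, and LINC00702 was among the members that fell. All 3 hold a match and do not stand for the other promoters looked up. LINC02970, LINC02376, LINC01572, LINC02167 and LINC01144, which rose, held neither match. Nor did LINC00857, LINC01979 and LINC02742, which fell, while LINC01629, which also fell, held TGANTCA.
LINC01512, chr6:43890778-43891077, plus strand: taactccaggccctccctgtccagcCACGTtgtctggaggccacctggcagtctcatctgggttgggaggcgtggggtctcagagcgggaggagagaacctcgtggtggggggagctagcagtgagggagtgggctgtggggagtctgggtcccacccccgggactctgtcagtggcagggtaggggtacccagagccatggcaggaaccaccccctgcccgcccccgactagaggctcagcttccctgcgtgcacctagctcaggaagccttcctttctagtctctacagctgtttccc
LINC00887, chr3:194312755-194313054, minus strand: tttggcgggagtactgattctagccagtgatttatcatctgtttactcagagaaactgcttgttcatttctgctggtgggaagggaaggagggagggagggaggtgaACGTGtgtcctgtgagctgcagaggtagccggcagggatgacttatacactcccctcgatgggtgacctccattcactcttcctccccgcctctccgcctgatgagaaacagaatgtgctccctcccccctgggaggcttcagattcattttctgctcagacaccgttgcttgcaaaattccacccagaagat
LINC00702, chr10:4243863-4244162, minus strand: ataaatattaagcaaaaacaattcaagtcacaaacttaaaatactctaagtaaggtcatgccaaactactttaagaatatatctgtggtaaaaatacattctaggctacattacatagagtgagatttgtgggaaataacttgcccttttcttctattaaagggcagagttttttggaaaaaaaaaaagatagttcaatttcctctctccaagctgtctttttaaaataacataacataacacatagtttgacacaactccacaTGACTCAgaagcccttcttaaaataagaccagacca
ACGTG occurred in 13 of the 41 matched promoters of members that rose (31.7%), in 1 of the 9 of members that fell (11.1%) and in 29.1% of those of members not past the test. The share was 28.7% over all 129 matched members and 21.4% over all 35116 promoters of the table. TGANTCA occurred in 14.6% of promoters of members that rose, in 22.2% of those of members that fell (2 of 9) and in 12.7% of those not past the test. It occurred in 18 of all 129 matched promoters and in 7.71% of all promoters of the table. These are counts of letters in one window and say nothing of a factor's binding.

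METTL3 was lower in every library labelled with its shRNA. It received 1064, 956 and 1145 counts in METTL3 shRNA libraries A, B and C, against 3874, 4060 and 4141 counts in control shRNA libraries A, B and C. The groups did not overlap, and the log2 fold change was −1.80 (SE 0.08, edgeR adjusted p = 1.45e-07). The columns of the knockdown group carry a construct number that no label explains and were assigned by elimination, so this level is the check of the assignment. Exons of METTL3 and TOX4 lie on opposite strands over the same bases, and the sources used here do not say whether counting used strand, so METTL3 counts may hold reads of TOX4, as may those of other overlapping genes below. Separate cultures are not named in the labels, so every p-value here measures only the spread among the libraries of a group, which may be technical. Total counts ran from 100534896 to 101473388 in METTL3 shRNA libraries and from 102420127 to 103624456 in control shRNA libraries. Of 11 renal and carcinoma line markers, 9 averaged over 1 FPKM (fragments scaled to transcript length and library size), PAX8 at 88.1 FPKM among them, while EPCAM (0.46 FPKM) and CDH1 (0.083 FPKM) were near 0. None of the leukocyte, endothelial and fibroblast markers averaged over 1 FPKM. In bulk libraries, fewer cells that express an RNA and less of that RNA per cell cannot be told apart.

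More expressed LINC RNAs rose than fell in METTL3 shRNA libraries. Of the 198 members, all of which passed the filter on low counts, 58 were higher (29.3%), 17 were lower (8.59%) and 123 did not pass (quasi-likelihood test of edgeR with p adjusted by Benjamini-Hochberg over 18740 genes, threshold 0.05). Over all genes tested, 33.5% were called, 16.5% higher and 16.9% lower. The share of members called in either direction, 37.9%, was near that background. Of the called members 77.3% were higher, against 49.4% of all called genes. No test was made of this split, since the members were chosen with earlier results of these data known.

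The median log2 fold change over the members was 0.19, against −0.0030 over all genes tested and −0.03 over protein-coding genes, and 129 of 198 members had a positive value. The direction of small changes depends on the scaling. With scaling by library size alone, 37 members were higher and 24 lower, so that 60.7% of the called members were higher, against 29.6% of all called genes. That scaling moved the median over all genes by −0.11 and the members' median to 0.08. The distance between the members' median and that of protein-coding genes was 0.22 under both scalings. A change of scaling moves all genes by about the same amount, so this distance could hardly change. No called member changed sign under either scaling, which a move of −0.11 could not bring about, since the smallest called rise was 0.22.

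Mitochondrial transcripts took 8.11% ± 0.37 of the counts in METTL3 shRNA libraries and 4.46% ± 0.27 in control shRNA libraries (SD, n = 3 each). With those transcripts left out, 58 members were again higher and 17 lower. Summed over the members, the level was 1268, 1279 and 1306 TMM-scaled CPM in METTL3 shRNA libraries A, B and C, against 1157, 1174 and 1149 in control shRNA libraries A, B and C. The sums averaged 1284 ± 19.9 and 1160 ± 12.7 CPM, a difference of 10.7%. In CPM of the raw column totals the METTL3 shRNA sums averaged 1236 ± 50.2 and the control shRNA sums 1205 ± 37.9, and in FPKM they averaged 988 ± 31.6 and 954 ± 21.3. On both of these scales the groups overlapped, so the summed level differed beyond the spread only after TMM scaling.

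Over the 75 called members the median size of the log2 fold change was 0.64, and 31 of them changed by less than 1.5-fold. At least 2-fold higher were 12 members (6.06%), against 2.33% of all genes tested, and at least 2-fold lower were 5 (2.53%), against 2.15% of all genes tested. Control shRNA libraries averaged under 0.5 CPM for 4 of these 12, and METTL3 shRNA libraries for 2 of these 5, so these members reached the threshold only through the group in which they were high. The groups did not overlap for 98 members (49.5%), against 47.4% of all genes tested. Of those 98, the METTL3 shRNA libraries were above the control shRNA libraries for 76 and below them for 22. There were 26 members without overlap that did not pass the test, and 3 called members whose groups overlapped.

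**Figure D1:**
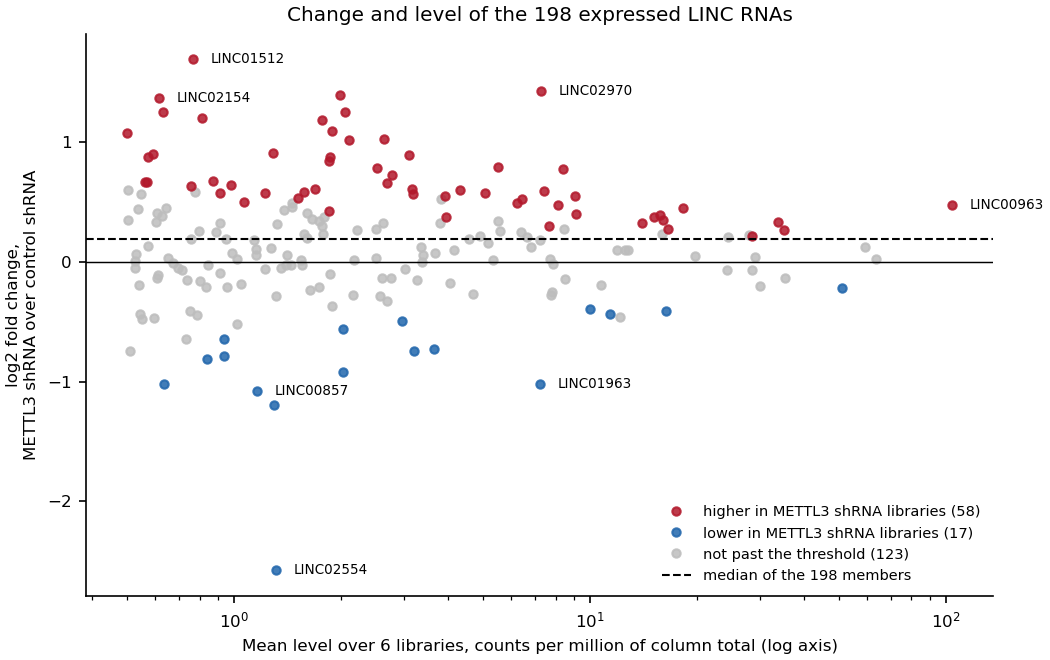
Each point is 1 of the 198 members, with its mean level over the 6 libraries on the horizontal log axis (CPM of the column total) and its log2 fold change, METTL3 shRNA over control shRNA, on the vertical axis. Red points were higher (58), blue points lower (17) and grey points not past the test (123). The dashed line is the members' median, 0.19, and the largest changes lie among members of low level.

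The level of the members spanned a wide range. Mean CPM of the column totals ran from 0.501 to 104 with a median of 1.88, and 102 of the 198 members were under 2 CPM while 29 were at 10 CPM or more. The 16 most abundant members held 50% of the summed CPM. Of these 16, 5 were higher, 1 was lower and 10 did not pass. The most abundant by counts was LINC00963, first described in the progression of prostate cancer. It received 11850, 11668 and 11940 counts in METTL3 shRNA libraries A, B and C, against 10150, 9241 and 8693 in control shRNA libraries A, B and C. Every METTL3 shRNA library was above every control shRNA library, and the log2 fold change was 0.47 (SE 0.09, edgeR adjusted p = 0.00129). The abundant member that fell was LINC00839, at 50.9 CPM over the 6 libraries, with a log2 fold change of −0.22 (SE 0.07, edgeR adjusted p = 0.0305). That call was lost in 4 of the 6 fits that left out 1 library, with edgeR adjusted p up to 0.0980.

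Calls were made at all levels. Of the 56 members under 1 CPM, 13 were higher and 4 lower. Of the 113 members from 1 to 10 CPM, 35 were higher and 10 lower, and of the 29 at 10 CPM or more, 10 were higher and 3 lower. The median standard error of the log2 fold change was 0.21 in the lowest of these bins and 0.09 in the highest, so a change had to be larger at low counts to be called. Log2 fold changes of members at 10 CPM or more lay between −0.46 and 0.47. At the threshold, LINC01144, LINC02175 and LINC00431 stood just inside at 0.501, 0.502 and 0.504 CPM, and LINC02381, LINC02983 and LINC01714 just outside at 0.4996, 0.498 and 0.493 CPM. For 20 members only one group averaged 0.5 CPM or more, and 10 of these were called, 8 higher and 2 lower.

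On the scale of the authors' FPKM values, which divide by transcript length, the highest mean levels over the 6 libraries were those of LINC00958 (53.0 FPKM), LINC00467 (42.9 FPKM), LINC01629 (38.5 FPKM), LINC00963 (30.3 FPKM) and LINC02482 (28.0 FPKM). LINC00958, studied in bladder and liver cancer, stood at 53.8 ± 3.82 FPKM in METTL3 shRNA libraries and 52.1 ± 3.00 FPKM in control shRNA libraries. LINC00467, a neuroblastoma RNA repressed by N-Myc, stood at 44.1 ± 4.80 and 41.7 ± 2.46 FPKM in METTL3 shRNA and control shRNA libraries (SD, n = 3 each). Neither passed the test, with edgeR adjusted p = 0.25 for LINC00958 and 0.0915 for LINC00467. LINC02482 rose, with 993, 840 and 783 counts in METTL3 shRNA libraries A, B and C, against 674, 660 and 573 in control shRNA libraries A, B and C (log2 fold change 0.59, SE 0.12, edgeR adjusted p = 0.00307), without overlap of the groups. LINC01629 had between 51 and 136 counts in any library, so its high FPKM rests on the transcript length that the authors used.

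The 10 members with the largest rise were LINC01512, LINC02970, LINC01226, LINC02154, LINC02376, LINC01572, LINC02167, LINC02918, LINC00115 and LINC01144, in that order, with log2 fold changes from 1.69 to 1.07. LINC01512 had 141, 127 and 81 counts in METTL3 shRNA libraries A, B and C, against 50, 28 and 41 in control shRNA libraries A, B and C. Its lowest METTL3 shRNA library was above its highest control shRNA library. The log2 fold change was 1.69 (SE 0.27, edgeR adjusted p = 0.000655), at a level of 1.20 ± 0.35 CPM in METTL3 shRNA libraries and 0.37 ± 0.11 CPM in control shRNA libraries (SD, n = 3 each). Its identifier was not matched to GENCODE 29, so its overlap with other genes was not analysed here.

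LINC02970 is the only one of the 10 above 5 CPM. It lies on the minus strand of chromosome 20 (chr20:62596732-62603115, GRCh38) and has 2 exons. It received 1072, 1290 and 785 counts in METTL3 shRNA libraries A, B and C, against 532, 491 and 264 in control shRNA libraries A, B and C. All METTL3 shRNA libraries were above all control shRNA libraries, and library C was the lowest of each group. The log2 fold change was 1.42 (SE 0.23, edgeR adjusted p = 0.000688), and the level was 17.6 ± 3.93 FPKM in METTL3 shRNA libraries and 8.26 ± 2.67 FPKM in control shRNA libraries (SD, n = 3 each). On log2(FPKM + 1) without a filter the difference was 1.03 and did not pass (limma adjusted p = 0.0577).

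LINC02154, which has been studied in clear cell renal carcinoma, is on the X chromosome (chrX:13266048-13303452, minus strand) and overlaps no other exon. It had 95, 75 and 94 counts in METTL3 shRNA libraries A, B and C, against 31, 47 and 34 in control shRNA libraries A, B and C. The groups were apart, with a log2 fold change of 1.37 (SE 0.23, edgeR adjusted p = 0.000824). LINC02376 (chr12:127274467-127284283, minus strand) had 322, 274 and 260 counts in METTL3 shRNA libraries A, B and C, against 130, 146 and 120 in control shRNA libraries A, B and C. It was more even within each group than LINC02970, and its log2 fold change of 1.25 had an SE of 0.16 (edgeR adjusted p = 0.000162). The protein-coding genes nearest to LINC02154 and LINC02376, ATXN3L and TMEM132C, had 0 counts in every library.

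Of the other large rises, several share bases with another gene and are less certain. LINC01226 overlaps TINAGL1 on its own strand, LINC00115 overlaps LINC01128 on the opposite strand, LINC01144 overlaps ZSWIM5 on the opposite strand, LINC01572 overlaps an unnamed locus on the opposite strand and LINC02167 holds 5S ribosomal RNA pseudogenes. LINC01226 had 260, 380 and 214 counts in METTL3 shRNA libraries A, B and C, against 132, 144 and 81 in control shRNA libraries A, B and C (log2 fold change 1.39, SE 0.25, edgeR adjusted p = 0.00110). TINAGL1, an extracellular matrix protein gene with 43708 to 47730 counts in METTL3 shRNA libraries and 38092 to 38634 in control shRNA libraries, had a log2 fold change of 0.41. On log2(FPKM + 0.1) the call of LINC01226 was lost, at 0.90. LINC00115, studied in glioma, had 264, 263 and 234 counts in METTL3 shRNA libraries A, B and C, against 131, 142 and 119 in control shRNA libraries A, B and C (log2 fold change 1.09, SE 0.16, edgeR adjusted p = 0.000286). LINC01128, which shares bases with it, is itself a member and did not pass (log2 fold change −0.14, edgeR adjusted p = 0.223).

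LINC02918 starts 388 bases from IPO13, which encodes a nuclear import receptor, and runs away from it on the opposite strand. It had 258, 278 and 191 counts in METTL3 shRNA libraries A, B and C, against 140, 121 and 91 in control shRNA libraries A, B and C. The groups did not overlap (log2 fold change 1.18, SE 0.21, edgeR adjusted p = 0.00105). IPO13 itself had a log2 fold change of 0.19 and did not pass (edgeR adjusted p = 0.182). Another 48 members that rose had log2 fold changes from 0.22 to 1.02.

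**Figure D2:**
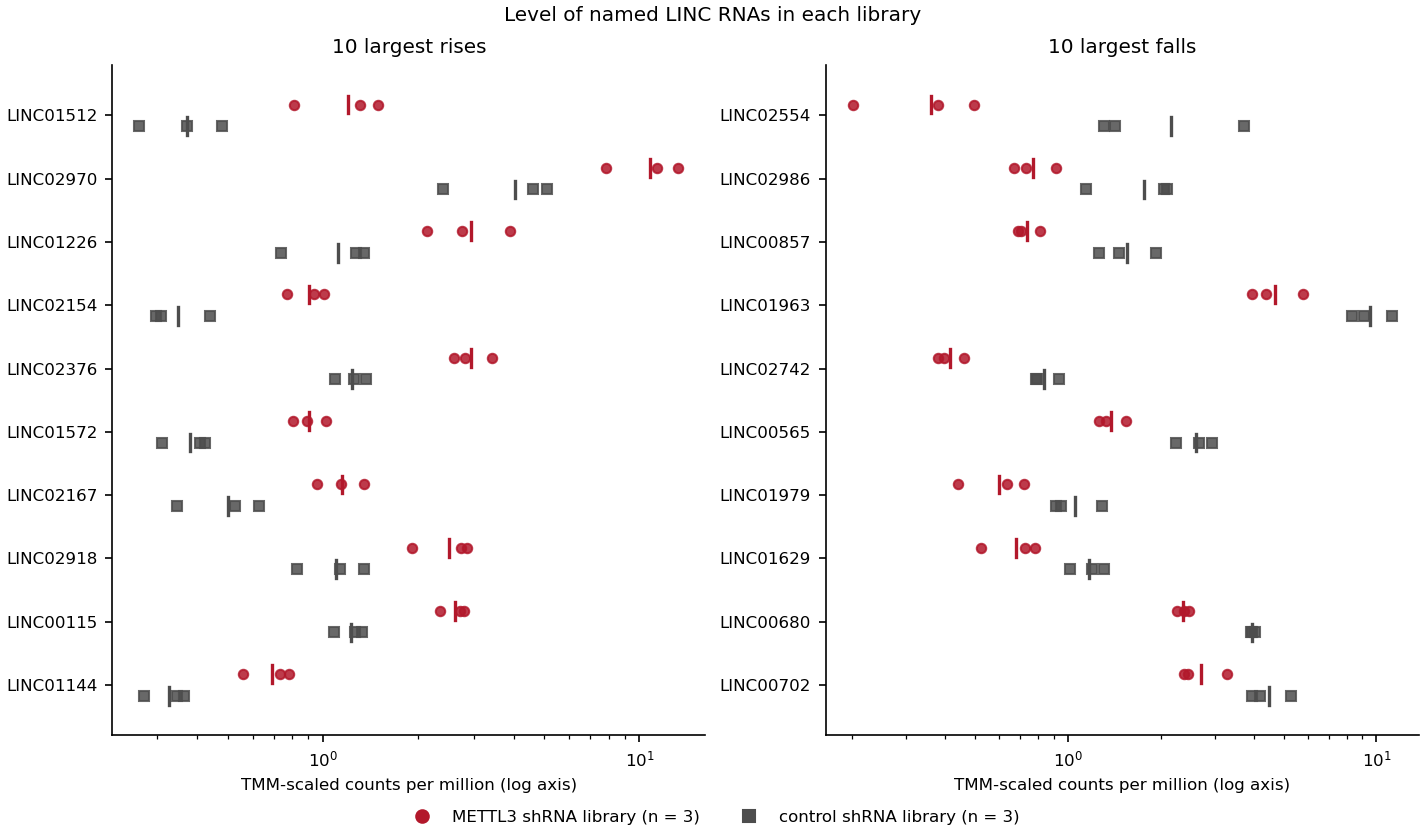
TMM-scaled CPM (log axis) in each of the 3 METTL3 shRNA libraries (red circles, upper row of each gene) and the 3 control shRNA libraries (grey squares, lower row), for the 10 members with the largest rise on the left and the 10 with the largest fall on the right. Vertical bars are group means. The groups do not overlap for any of the 20, which is how they were chosen, and LINC02554 has 1 control shRNA library far above the others.

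The 10 members with the largest fall were LINC02554, LINC02986, LINC00857, LINC01963, LINC02742, LINC00565, LINC01979, LINC01629, LINC00680 and LINC00702, in that order, with log2 fold changes from −2.58 to −0.73. LINC02554 (chr22:27310651-27317456, plus strand) had 19, 37 and 50 counts in METTL3 shRNA libraries A, B and C, against 137, 152 and 411 in control shRNA libraries A, B and C. Control shRNA library C was far above the others of its group, and the groups did not overlap. The log2 fold change was −2.58 (SE 0.40, edgeR adjusted p = 0.000509) and −1.92 without control shRNA library C, which still passed.

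LINC00857, studied in lung adenocarcinoma, had 65, 79 and 71 counts in METTL3 shRNA libraries A, B and C, against 201, 135 and 162 in control shRNA libraries A, B and C. The groups were apart, with a log2 fold change of −1.08 (SE 0.20, edgeR adjusted p = 0.00135). It starts 2138 bases from ANXA11, which encodes a calcium-dependent phospholipid-binding annexin, and the genes run in opposite directions. ANXA11 rose, with 20934, 20027 and 17829 counts in METTL3 shRNA libraries A, B and C, against 18311, 17268 and 15841 in control shRNA libraries A, B and C (log2 fold change 0.33, SE 0.10, edgeR adjusted p = 0.0207). Raw counts of ANXA11 overlapped between groups, while its TMM-scaled levels were narrowly apart. Those levels were 202 ± 22.2 and 161 ± 16 CPM in METTL3 shRNA and control shRNA libraries (SD, n = 3 each).

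LINC01963 was the most abundant of the 10 by counts. It is a single-exon transcript on chromosome 2 (chr2:216217045-216220192, plus strand) and overlaps no other annotated exon. It had 414, 384 and 579 counts in METTL3 shRNA libraries A, B and C, against 867, 975 and 1234 in control shRNA libraries A, B and C. Library C was the highest of each group and the groups did not overlap (log2 fold change −1.02, SE 0.15, edgeR adjusted p = 0.000299). Its nearest protein-coding gene, XRCC5, which encodes the Ku80 subunit of the DNA end-joining machinery, did not pass (log2 fold change −0.19, edgeR adjusted p = 0.0628).

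LINC02986 had 69, 65 and 92 counts in METTL3 shRNA libraries A, B and C, against 119, 224 and 226 in control shRNA libraries A, B and C (log2 fold change −1.19, SE 0.24, edgeR adjusted p = 0.00218). LINC00702 had 231, 231 and 329 counts in METTL3 shRNA libraries A, B and C, against 410, 449 and 584 in control shRNA libraries A, B and C (log2 fold change −0.73, SE 0.16, edgeR adjusted p = 0.00382). In both the groups were apart. LINC00680, LINC01629 and LINC01979 share exon bases with other annotated genes and are less certain. LINC00680 is annotated as a transcribed pseudogene, and had 233, 231 and 227 counts in METTL3 shRNA libraries A, B and C, against 420, 421 and 431 in control shRNA libraries A, B and C, the tightest pair of groups among the 10. The call of LINC01629 was lost without METTL3 shRNA library B (edgeR adjusted p = 0.0547), and that of LINC01979 without METTL3 shRNA library B or control shRNA library C (edgeR adjusted p up to 0.0786). The other 7 members that fell had log2 fold changes from −0.22 to −0.64.

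Libraries C of both groups often stood at one end of their group. Among the 58 members that rose, METTL3 shRNA library C was the lowest of its group for 37 and control shRNA library C the lowest of its group for 33. Among the 17 that fell, library C was the highest of its group for 11 in METTL3 shRNA libraries and for 11 in control shRNA libraries. Without METTL3 shRNA library C, 54 members were higher and 22 lower, and without control shRNA library C, 51 were higher and 16 lower, with member medians of 0.18 and 0.14.

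A list of 37 symbols of LINC RNAs with a published role in cancer cells or as small-protein genes was taken from general knowledge and is not complete. Of these, 28 were found in the table and 20 were members. Of the 20, 10 were higher, 0 were lower and 10 did not pass (edgeR). Of all 198 members 37.9% were called and 29.3% were higher. The shares over all genes tested were 33.5% called and 16.5% higher. The count of 0 lower describes this list only. LINC00857, which fell and has been studied in lung adenocarcinoma, is not on it. Genes that have since lost their LINC symbol could not be matched by it. Among these, MTLN (once LINC00116) was called lower, at −0.31, and NORAD (once LINC00657) higher, at 0.32. PDE10A, for which RefSeq lists LINC00473 as a synonym, was called higher at 0.29. Of 126 tested genes with a LINC number as a RefSeq synonym, 33 were higher and 12 lower. The median log2 fold change of the 20 listed members was 0.27, against 0.19 over all members. The largest rises after LINC02154 and LINC00115 were those of LINC00887 and LINC00339. LINC00887, studied in renal carcinoma, had 393, 461 and 332 counts in METTL3 shRNA libraries A, B and C, against 223, 231 and 250 in control shRNA libraries A, B and C, with no overlap (log2 fold change 0.89, SE 0.15, edgeR adjusted p = 0.000711). LINC00339, at an endometriosis risk locus, had 1062, 1058 and 1052 counts in METTL3 shRNA libraries A, B and C, against 808, 837 and 742 in control shRNA libraries A, B and C (log2 fold change 0.55, SE 0.09, edgeR adjusted p = 0.000966). It shares exon bases with several unnamed loci.

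LINC01139, also known as LINK-A and described as an activator of HIF1A signalling in breast cancer cells, had 1713, 1555 and 1963 counts in METTL3 shRNA libraries A, B and C, against 1445, 1487 and 1438 in control shRNA libraries A, B and C. The groups were apart (log2 fold change 0.39, SE 0.09, edgeR adjusted p = 0.00519), and it shares exon bases with an unnamed locus on the opposite strand. Smaller rises were called for LINC00342 (log2 fold change 0.37), LINC00472 (0.32), LINC01116 (0.28) and LINC00662 (0.26). Each of these 4 calls was lost in fits that left out 1 library, 2 of the 6 fits for LINC00342, 5 for LINC00472, 4 for LINC01116 and 3 for LINC00662, with edgeR adjusted p up to 0.156, and each was lost with scaling by library size alone.

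The 10 that did not pass had log2 fold changes from −0.20 to 0.32. LINC00511, studied in breast cancer, had the lowest value, with 2412, 2457 and 3253 counts in METTL3 shRNA libraries A, B and C, against 3427, 3478 and 3317 in control shRNA libraries A, B and C. In raw counts every METTL3 shRNA library was below every control shRNA library, but the TMM-scaled levels overlapped and the log2 fold change of −0.20 (SE 0.10) did not pass (edgeR adjusted p = 0.133). LINC00665, which encodes the micropeptide CIP2A-BP, stood at 0.05 ± 0.07 and LINC01234 at −0.0044 ± 0.12 (log2 fold change ± SE). LINC00461, which hosts a miR-9 precursor gene, had between 77 and 128 counts in any library and a log2 fold change of −0.10 (SE 0.20, edgeR adjusted p = 0.742).

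**Figure D3:**
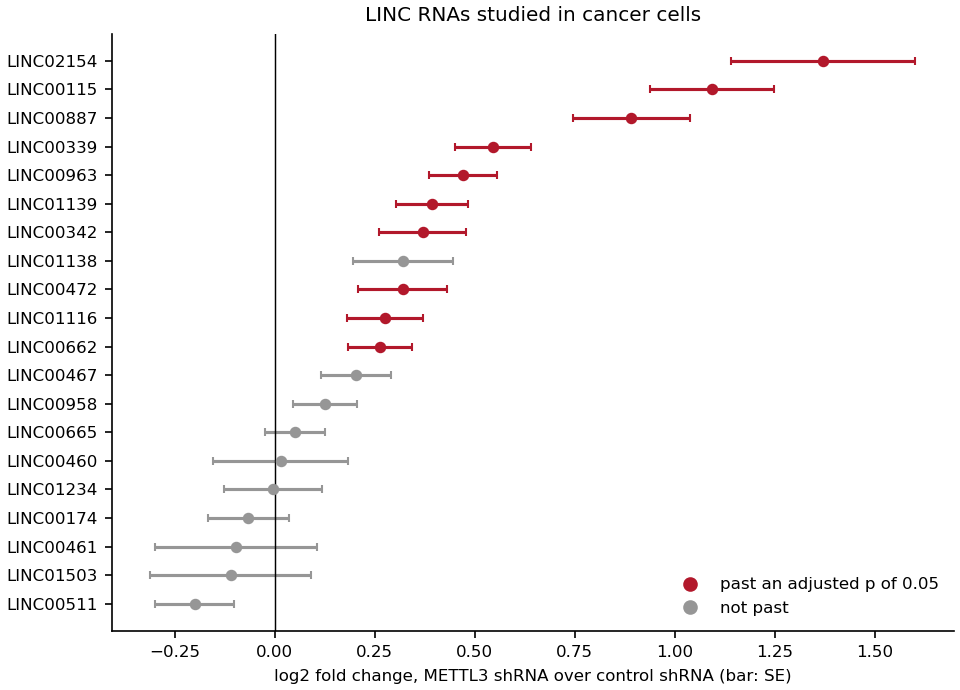
Log2 fold changes, METTL3 shRNA over control shRNA, of the 20 members on the published-role list, ordered by value, with bars of 1 SE. Red points (10) passed an adjusted p of 0.05 and grey points (10) did not. The values run from 1.37 for LINC02154 to −0.20 for LINC00511.

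Other classes of noncoding RNA were read out beside the members. Divergent transcripts (symbols ending in -DT), which start at the promoter of a protein-coding gene and run away from it, were higher for 78 and lower for 6 of 316, at a median of 0.25 (log2). Antisense symbols were higher for 133 and lower for 43 of 646 (median 0.15). Hosts of small nucleolar RNAs (SNHG) were higher for 13 and lower for 3 of 25 (median 0.33), and microRNA host symbols for 8 and 2 of 36 (median 0.19). Among 13945 protein-coding genes, 2337 were higher and 2861 lower. Called in either direction were 26.6% of divergent transcripts, 27.2% of antisense symbols, 27.8% of microRNA hosts and 64% of SNHG. The share was 37.3% of protein-coding genes and 33.5% of all genes tested. In each of these noncoding classes, as among the members, more genes were called higher than lower. With scaling by library size alone the medians were 0.08 for the members, 0.14 for divergent transcripts, 0.03 for antisense symbols and −0.14 for protein-coding genes.

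**Figure D4:**
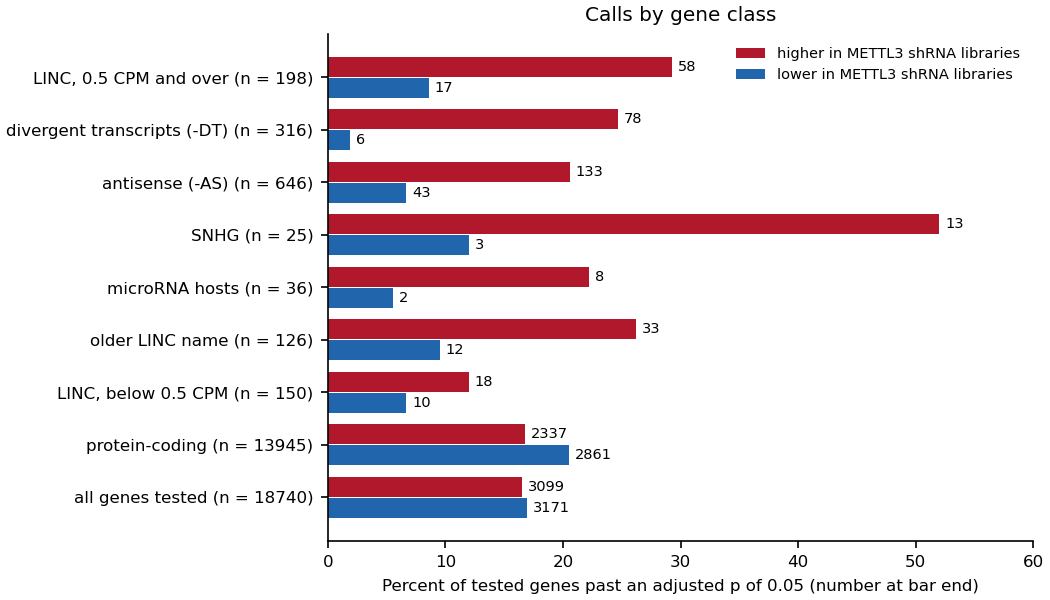
Percent of tested genes of each class that were higher (red, upper bar) or lower (blue, lower bar) in METTL3 shRNA libraries, with the number of genes at the end of each bar and the number tested beside the name. LINC RNAs of 0.5 CPM and over had 58 higher and 17 lower of 198, and protein-coding genes 2337 higher and 2861 lower of 13945.

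The nearest protein-coding gene of each member was taken from GENCODE 29, in which 196 of the 198 members had a position. The gene bodies overlapped for 18 members, the median gap was 21.2 kb, and 42 members were more than 100 kb from any protein-coding gene. The neighbour was tested for 157 members. Log2 fold changes of member and neighbour had the same sign for 88 of the 157 (56.1%), and across genes Spearman's rho was 0.13 and Pearson's r was 0.19. For the 62 neighbours that overlapped or lay within 10 kb, 56.5% had the same sign (rho 0.22). Genes are not independent replicates, some neighbours are shared, and overlapping pairs may share reads, so these are descriptions.

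Of the 59 called members with a tested neighbour, 20 had a called neighbour (33.9%), near the 33.5% called over all genes tested, so the pairs below are examples and no result about neighbours as a group. Both rose in 10 pairs and both fell in 3, the member rose and the neighbour fell in 5, and the member fell and the neighbour rose in 2. In the pair with the largest joint rise, LINC02970 lies 39330 bases from SLCO4A1, which encodes an organic anion transporter, with the genes running away from each other. SLCO4A1 received 51809, 59430 and 44120 counts in METTL3 shRNA libraries A, B and C, against 26540, 25202 and 22068 in control shRNA libraries A, B and C. As for LINC02970, library C was the lowest of each group and the groups were apart (edgeR adjusted p = 4.41e-05 for a log2 fold change of 1.21).

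In the pair with the largest joint fall, LINC02554 lies 430821 bases from MN1, a transcriptional coregulator gene first found at a translocation in meningioma. MN1 had 323, 445 and 512 counts in METTL3 shRNA libraries A, B and C, against 1010, 885 and 1461 in control shRNA libraries A, B and C. The groups did not overlap (log2 fold change of MN1 −1.25, SE 0.17, edgeR adjusted p = 0.000232). For both genes control shRNA library C was the highest and METTL3 shRNA library A the lowest. That control library was the highest of its group for 11 of the 17 members that fell. MN1 is also nearest to LINC01638, a member that did not pass (log2 fold change −0.21, edgeR adjusted p = 0.363). The other joint falls were LINC02986 with ZBTB10 (−0.26, edgeR adjusted p = 0.0438) and LINC02742 with METTL15 (−0.32, edgeR adjusted p = 0.0160).

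Close neighbours did not always move with the member. Within 10 kb, 8 of the 18 called members with a tested neighbour had a called neighbour (44.4%, against 33.5% of all genes tested). Both rose in 6 of these pairs, the member rose and the neighbour fell in 1, and the member fell and the neighbour rose in 1. LINC01135 starts 801 bases from JUN, the AP-1 subunit gene, on the opposite strand. It had 63, 77 and 65 counts in METTL3 shRNA libraries A, B and C, against 40, 53 and 49 in control shRNA libraries A, B and C (log2 fold change 0.67, SE 0.22, edgeR adjusted p = 0.0300), while JUN had a log2 fold change of −0.16 and did not pass (edgeR adjusted p = 0.240). LINC01560 starts 625 bases from ZNF41, a zinc finger gene, and rose (log2 fold change 0.67, edgeR adjusted p = 0.0280) while ZNF41 fell (log2 fold change −0.41, edgeR adjusted p = 0.00576). LINC01011 overlaps NQO2, a quinone oxidoreductase gene, on the same strand, and both rose (log2 fold changes 0.59 and 0.51). The calls of LINC01135 and LINC01560 were each lost in 4 of the 6 fits that left out 1 library, with edgeR adjusted p up to 0.123 and 0.102, and that of LINC01011 in 1 fit, with edgeR adjusted p = 0.0537. LINC01135, LINC01560 and LINC01011 were chosen after their values were seen.

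**Figure D5:**
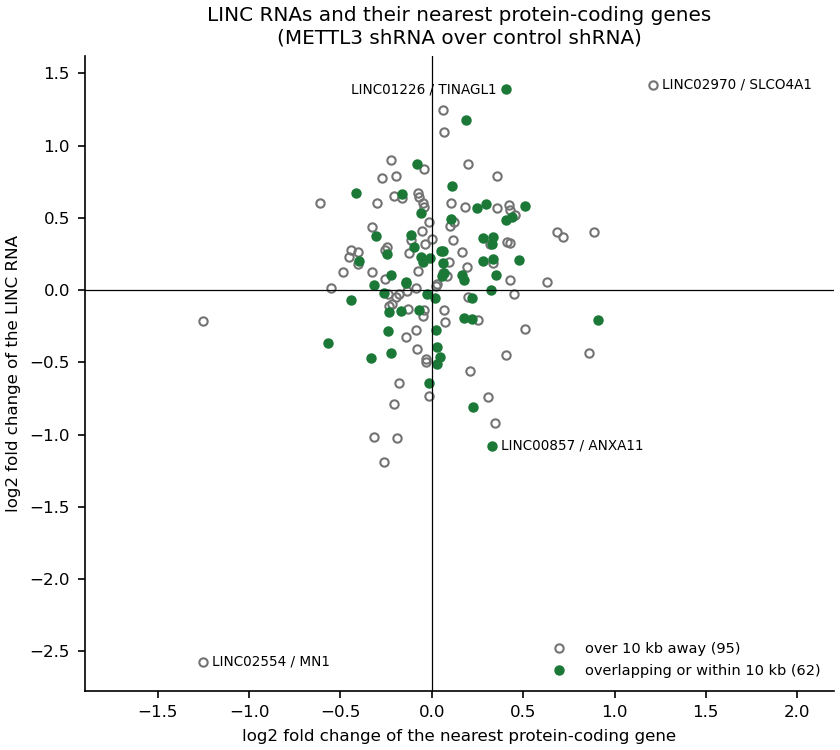
Log2 fold change of the nearest protein-coding gene (horizontal) and of the LINC RNA (vertical), METTL3 shRNA over control shRNA, for the 157 members with a tested neighbour. Filled green points (62) overlap or lie within 10 kb of the neighbour and open points (95) lie farther away. Points lie on both sides of each axis, and 88 of 157 pairs share a sign.

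Transcript structure was read out for members that rose, fell or did not pass. In GENCODE 29 the median length of the reference transcript was 1787 bases for members that rose, 2253 for members that fell and 2126 for members not past the test, against 2824.5 for all genes tested. The median member had 3 exons, against 7 over all genes tested, and 30 of 196 members had a single exon. Of those 30, 10 rose and 3 fell. GGACT occurred in 85.7% of the transcripts of members that rose, in 70.6% of those that fell (12 of 17) and in 82.9% of those not past the test. The share was 87.3% over all genes tested. The median density was 0.79 per kb in members that rose, 0.67 in members that fell and 0.90 in members not past the test, against 0.93 over all genes tested. The differences between these subsets were not tested.

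By annotation, 154 members were of the lincRNA type, of which 44 rose and 13 fell. Annotated as protein-coding were 2 members, and others had types such as antisense or processed transcript. Another 12 were annotated as pseudogenes, of which 2 rose and 3 fell, and their reads can be shared with near-identical copies. Exons of 68 members overlapped those of another gene, 52 on the opposite strand and 28 on the same strand. Among the 128 members with no such overlap, 31 rose and 9 fell (median log2 fold change 0.12), and among the 68 with overlap 25 rose and 8 fell, with a median of 0.22. The 196 members with a position came from 23 chromosomes, each with at least 1 called member, and chromosome 1 held the most members, 29, of which 10 rose and 1 fell.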

How the data were processed

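RNA was sequenced from both ends in 3 METTL3 shRNA and 3 control shRNA libraries of 786-O cells. Per-gene counts in whole numbers and FPKM values for the same 61860 Ensembl genes were deposited by the authors, as 2 tables of 6 columns. STAR 2.7.10b, Salmon and GRCh38 stand in the submitters' processing notes, without roles. Annotation release and strand setting: not given in the sources used here. Other columns of values were not present.

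The members and lists were chosen with earlier results of these data known. Deposited counts were filtered with filterByExpr, scaled by TMM and compared in edgeR 4.0.16 with its quasi-likelihood test (limma 3.58.1, R 4.3.3), with Benjamini-Hochberg adjustment at 0.05 over 18740 genes. Standard errors came from the F statistic. The procedure was tested on simulated counts. CPM in comparisons are TMM-scaled, while membership uses column totals. The deposited FPKM values gave levels per length. Within groups, chi-square per degree of freedom between libraries was 15.3 to 58.1, above sampling noise, so no library was taken as a repeat. At about 100534896 counts or more per library, the spread between libraries limits precision more than counting error does, except for weakly expressed members.

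Named by rule were METTL3, the 5 members with the highest FPKM, the 10 largest rises and falls past the threshold without overlap, the members of the published-role list, 3 symbols on each side of the threshold, and the nearest protein-coding genes of members named for their change. Members named as abundant, as sharing bases or for a close neighbour outside that rule were chosen after their values were seen. Positions, exons and transcripts came from GENCODE 29, in which 58254 identifiers were found, and promoters from RefSeq (GRCh38.p14). Not every sequence looked up is reported here.

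No source ties the column letters to the labels' replicate numbers. Deviations from the group means of libraries with the same letter correlated at −0.02, −0.05 and 0.17, so the letters were not taken to pair the libraries. Alternatives were DESeq2 1.42.0, limma-voom, other scalings and filters, log2(FPKM + 1) and log2(FPKM + 0.1) in limma with a filter of 0.5 FPKM in 3 libraries, a block on the letter, members without exon overlap, leaving out each library, and, added after seeing the data, membership in each group.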

Additional observations from a re-analysis of the deposited data

How the results depend on the processing

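The counts of 75 called members, 58 higher and 17 lower, were recomputed under each alternative. On log2(FPKM + 0.1), 49 members were called, 33 of them higher, on log2(FPKM + 1) 34 were higher, and on log2(FPKM + 1) without a filter 32 were called, 21 higher and 11 lower, with 6 of the published-role members. Among members with no exon overlap, which are fewer, 40 were called, 31 higher and 9 lower. With scaling by library size alone 37 were higher. The difference of the summed level on the log2 scale was 0.15 with TMM, 0.036 on raw column totals and 0.050 in FPKM. The cause of these differences was not tested. Leaving out each library gave 56 to 76 called members, 44 to 54 higher and 12 to 22 lower, and 45 of the 75 calls were kept in all 6 such fits. A block on the column letter, which does not pair the libraries, gave 65 higher and 20 lower. DESeq2 called 57 higher and 17 lower. On log2(FPKM + 1) without a filter the calls of LINC02970, LINC01226, LINC02554, LINC02986, LINC01979 and LINC01139 were lost. LINC00665, which did not pass, turned to −0.060 with library size scaling, −0.053 on log2(FPKM + 0.1) and −0.050 on log2(FPKM + 1) with or without a filter. LINC00460 turned to −0.10, −0.11 and −0.083 under the same alternatives. LINC01234 turned to 0.0010 with a filter of 1 CPM. Without single libraries LINC00460 ran from −0.095 to 0.16, LINC01234 from −0.059 to 0.037, LINC00174 from −0.13 to 0.031 and LINC00461 from −0.24 to 0.087, none past the test in the fit to all libraries. Depth limits members near 0.5 CPM, where a library holds about 50 counts.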

Other observations

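LINC symbols under the membership threshold numbered 2046, of which 1252 had 0 counts in every library. Of the rest, 150 passed the filter, and 18 of these were higher and 10 lower in METTL3 shRNA libraries (edgeR, adjusted p under 0.05). That is 18.7% called, 12% higher and 6.67% lower, against 33.5% of all genes tested, 16.5% higher and 16.9% lower. The 150 had a median log2 fold change of 0.18. They passed partly through the group in which they were higher, so these counts are no measure of all weak LINC RNAs. LINC01705 had 51, 34 and 19 counts in METTL3 shRNA libraries A, B and C, against 4, 4 and 5 in control shRNA libraries A, B and C (log2 fold change 3.11, SE 0.47, edgeR adjusted p = 0.000400). LINC02957 had 42, 33 and 40 counts in METTL3 shRNA libraries A, B and C, against 8, 7 and 14 in control shRNA libraries A, B and C (log2 fold change 2.11, SE 0.33, edgeR adjusted p = 0.000559). LINC00880 had 14, 12 and 19 counts in METTL3 shRNA libraries A, B and C, against 30, 54 and 70 in control shRNA libraries A, B and C (log2 fold change −1.63, SE 0.34, edgeR adjusted p = 0.00323). In all 3 the groups did not overlap. They were chosen after their values were seen.

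Some genes carry another symbol and have a LINC number as a RefSeq synonym. Such a synonym is listed for 297 symbols, of which 254 were found in the table and 126 were tested, protein-coding genes among them. The synonym need not be a former name of the same gene. LINC01004, a synonym of KMT2E-AS1, is still a member with its own counts, and so are LINC02804 (GPR89B) and LINC02193 (FAM157C). Of the 126, 35.7% were called, near the 33.5% over all genes tested, 33 higher and 12 lower, and the median over them was 0.13 (log2). NORAD, an RNA that sequesters Pumilio proteins, was at 302.5 ± 22.8 CPM in METTL3 shRNA libraries and 241.8 ± 4.2 CPM in control shRNA libraries (log2 fold change 0.32, SE 0.08, edgeR adjusted p = 0.00858). NEAT1, the scaffold of paraspeckles, was at 325.6 ± 27.3 CPM in METTL3 shRNA libraries and 235.1 ± 35.9 CPM in control shRNA libraries (log2 fold change 0.47, SE 0.11, edgeR adjusted p = 0.00553). UCA1, an RNA first described in bladder cancer, was at 23.9 ± 1.79 CPM in METTL3 shRNA libraries and 16.1 ± 1.80 CPM in control shRNA libraries (log2 fold change 0.57, SE 0.10, edgeR adjusted p = 0.000785). TINCR, an RNA of epidermal differentiation, went the other way, at 0.95 ± 0.28 CPM in METTL3 shRNA libraries and 2.54 ± 1.00 CPM in control shRNA libraries (log2 fold change −1.41, SE 0.27, edgeR adjusted p = 0.00172). Values are SD with n = 3 each. In all 4 the groups were apart, and they were chosen after their values were seen.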
